A study of Mus musculus with 2 samples.

Results

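Chemokine ligands are small secreted proteins that steer the movement of white blood cells. They were examined here in sections from nude mice carrying a micropillar implant and from nude mice carrying a flat implant, the treatment names given in the labels. The ligand genes were taken as every gene in both libraries whose symbol starts with Ccl, Cxcl or Cx3cl followed directly by a digit. This gave 29 of 19465 genes, of which 18 were Ccl genes, 11 were Cxcl genes and 0 were Cx3cl genes. Cx3cl1, Cxcl2, Cxcl11, Ccl19, Ccl21a and Ccl27a were not analysed here. RNA was counted as unique molecular identifiers (UMIs, 1 per captured molecule) in spots laid over formalin-fixed, paraffin-embedded sections, with 1 library from the micropillar implant and 1 from the flat implant. Tissue was labelled bone in both libraries, and the number of animals behind each library is not given in the labels. Every difference below therefore compares these 2 libraries, and its 95% interval covers counting error only.

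Chemokines signal through receptors that cross the cell membrane and couple to G proteins, and atypical receptors bind and clear them. Some ligands are made constitutively and place cells in healthy tissue, such as Cxcl12 in bone marrow and Cxcl14 in skin. Others are induced by injury or infection and recruit neutrophils, monocytes or T cells. An implant draws phagocytes to its surface, and nude mice lack a functional thymus and most mature T cells, so ligands of both kinds are of interest in such tissue.

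After spots under 100 UMIs were dropped, there remained 3064 of 3303 micropillar spots with 3173632 UMIs and 2681 of 3161 flat spots with 2263345 UMIs. The median was 831 UMIs per micropillar spot and 602 per flat spot. Each spot was placed in a tissue from lists of marker genes that hold no chemokine ligand. The label of bone covered few of the spots. Bone and matrix spots, led by fibrous collagens, numbered 414 in the micropillar library and 460 in the flat library. The micropillar library had 1840 neural, 528 skin, 30 muscle and 59 brain border spots. The flat library had 1430 neural, 356 skin, 261 muscle and 49 brain border spots. Within bone and matrix, 14 micropillar spots and 7 flat spots were placed by osteoblast and osteoclast genes themselves. Another 8 micropillar spots and 16 flat spots of this tissue were placed by granulocyte genes. A spot can hold several cells, so fewer cells of a type and less RNA per cell cannot be told apart. The libraries have 2135 spot barcodes in common, which are positions on the array rather than cells.

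Ligand genes took the same small share of the RNA in both libraries. They had 948 UMIs in the micropillar library, or 299 CPM (counts of UMIs scaled to a total of 1000000, 280 to 318), and 680 UMIs in the flat library, or 300.4 CPM (278 to 324). Micropillar over flat, the log2 ratio was -0.01 (-0.15 to 0.14). A ligand UMI was present in 699 micropillar spots (22.8%) and in 519 flat spots (19.4%). In all, 24 ligand genes were detected in the micropillar library, 21 of them with more than 3 UMIs, and 23 in the flat library, 15 of them with more than 3. A count of 0 was read against a floor of 3 counts, which is 0.945 CPM in the micropillar library and 1.33 CPM in the flat library. The exact Poisson upper limit for a gene with 0 UMIs, such as Cxcl13, is 1.16 CPM in the micropillar library and 1.63 CPM in the flat library. Most of the signal came from 8 genes with at least 50 UMIs over both libraries, Cxcl14, Ccl8, Ccl6, Cxcl16, Cxcl12, Cxcl5, Ccl9 and Ccl4. These held 831 micropillar UMIs (87.7%) and 597 flat UMIs (87.8%).

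Many of the genes lie in clusters on the mm10 genome. Chromosome 11 held 12 of the ligand genes and chromosome 5 held 9. A stretch of 270 kb on chromosome 11 with Ccl2, Ccl7, Ccl11, Ccl12, Ccl8 and Ccl1 gave 213 micropillar UMIs and 134 flat UMIs. The neighbouring stretch of 139 kb with Ccl5, Ccl9, Ccl6, Ccl3 and Ccl4 gave 193 micropillar UMIs and 125 flat UMIs. Most UMIs of the Ccl genes thus came from these neighbouring clusters, whereas Cxcl14 and Cxcl12 lie apart from them on chromosomes 13 and 6.

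Promoter windows are shown for Cxcl14 and Cxcl12, known as constitutive ligands, and for Ccl8 and Ccl9, ligands of monocytes and macrophages, to set their base composition side by side. RefSeq sequence of the GRCm38.p6 build was matched for 19 of the 29 genes, and for 5 of the 8 with at least 50 UMIs. Each window is the 250 bases before the transcription start, written 5′ to 3′ on the strand of the gene. Capitals mark the motifs TATAAA and GGGCGG on either strand, including matches that overlap each other. The windows lie at chr13:56296552-56296801 on the minus strand for Cxcl14, chr6:117168285-117168534 on the plus strand for Cxcl12, chr11:82114935-82115184 on the plus strand for Ccl8 and chr11:83578637-83578886 on the minus strand for Ccl9.
Cxcl14: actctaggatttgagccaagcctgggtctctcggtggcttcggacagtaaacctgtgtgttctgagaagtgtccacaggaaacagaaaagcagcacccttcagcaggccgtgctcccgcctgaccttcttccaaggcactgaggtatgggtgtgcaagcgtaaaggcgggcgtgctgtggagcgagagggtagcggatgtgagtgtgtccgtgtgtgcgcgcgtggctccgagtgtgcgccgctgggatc
Cxcl12: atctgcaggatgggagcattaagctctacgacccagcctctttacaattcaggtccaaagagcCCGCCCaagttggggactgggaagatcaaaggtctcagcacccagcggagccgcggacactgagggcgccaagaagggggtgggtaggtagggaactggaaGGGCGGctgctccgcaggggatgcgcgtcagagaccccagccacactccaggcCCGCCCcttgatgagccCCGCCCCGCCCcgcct
Ccl8: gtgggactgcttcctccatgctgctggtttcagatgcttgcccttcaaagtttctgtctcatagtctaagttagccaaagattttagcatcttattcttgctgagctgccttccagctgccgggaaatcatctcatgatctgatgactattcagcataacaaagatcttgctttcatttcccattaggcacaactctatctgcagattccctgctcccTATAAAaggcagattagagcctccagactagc
Ccl9: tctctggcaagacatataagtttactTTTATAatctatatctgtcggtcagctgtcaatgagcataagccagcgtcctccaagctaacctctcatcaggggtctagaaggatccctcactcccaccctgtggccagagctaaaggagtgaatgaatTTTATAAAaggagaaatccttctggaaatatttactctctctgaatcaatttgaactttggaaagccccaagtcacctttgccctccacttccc
The Cxcl14 window held 16 CG dinucleotides and neither motif. Cxcl12 had 14 CG dinucleotides and 5 GGGCGG matches. The Ccl8 window held 1 CG dinucleotide and a TATAAA 32 bases before the start. For Ccl9 the count was 2 CG dinucleotides and 3 TATAAA matches, at 224, 94 and 92 bases before the start. Over the windows of 27025 genes the median was 6 CG dinucleotides, TATAAA stood in 13% and GGGCGG in 32.9%. Of the 19 ligand windows, 13 had fewer CG dinucleotides than that median, 7 held TATAAA and 2 held GGGCGG, and their own median was 3 with a range of 1 to 45. Ccl6, the other of the 5 matched genes with at least 50 UMIs, had 2 CG dinucleotides and neither motif. A match describes the letters of the window and is not a binding site.

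**Figure D1:**
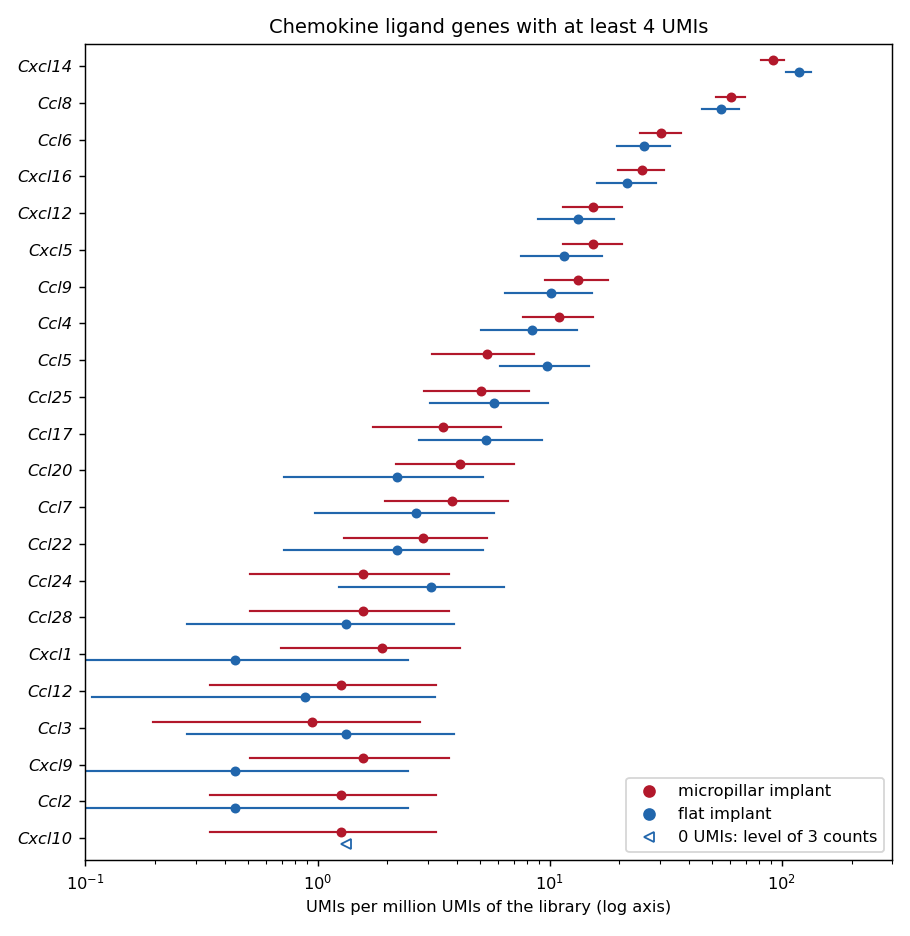
The plot shows CPM, UMIs scaled to the total of the library, on a log axis for the 22 ligand genes with at least 4 UMIs over both libraries, micropillar implant in red above flat implant in blue, with bars for 95% counting intervals that run off the axis at low counts. The intervals of the libraries overlap for most genes, and Cxcl14 is the gene with at least 50 UMIs whose ratio has an interval that leaves out 0.

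Cxcl14, a constitutive ligand of skin and other epithelia, had the most UMIs of the family. It lies at chr13:56288643-56296551 on the minus strand. It had 290 UMIs in the micropillar library, or 91.4 CPM (81.2 to 103), and 268 in the flat library, or 118 CPM (105 to 133). The micropillar level was the lower of the pair, with a log2 ratio of -0.37 (-0.62 to -0.13). Cxcl12 at chr6:117168535-117181367, which holds blood stem cells in the marrow through its receptor Cxcr4, had 49 micropillar UMIs, or 15.4 CPM, and 30 flat UMIs, or 13.3 CPM. Its log2 ratio was 0.22 (-0.46 to 0.93), so a difference was not detectable at this depth.

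Ligands of monocytes and macrophages made up most of the Ccl signal. Ccl8 at chr11:82115185-82116799, a monocyte attractant, had 191 micropillar UMIs, or 60.2 CPM, and 124 flat UMIs, or 54.8 CPM, a log2 ratio of 0.14 (-0.20 to 0.47). Ccl6 at chr11:83587882-83593087 and Ccl9 at chr11:83572919-83578636 are ligands of Ccr1 known from rodents. Ccl6 had 96 UMIs in the micropillar library and 58 in the flat library, a log2 ratio of 0.24 (-0.25 to 0.74). Ccl9 had 42 micropillar UMIs and 23 flat UMIs, a log2 ratio of 0.38 (-0.39 to 1.18). Ccl4 at chr11:83662584-83664683, made by activated macrophages and lymphocytes, had 35 micropillar UMIs and 19 flat UMIs, a log2 ratio of 0.39 (-0.45 to 1.28). All 4 of these Ccl genes were counted slightly higher in CPM in the micropillar library, and each interval included 0.

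Cxcl16 at chr11:70453983-70459984 is anchored in the membrane of phagocytes and epithelial cells and binds Cxcr6. It had 79 micropillar UMIs, or 24.9 CPM, and 49 flat UMIs, or 21.6 CPM, a log2 ratio of 0.20 (-0.33 to 0.75). Cxcl5 at chr5:90759360-90761624 recruits neutrophils through Cxcr2. It had 49 micropillar UMIs, or 15.4 CPM, and 26 flat UMIs, or 11.5 CPM, a log2 ratio of 0.43 (-0.29 to 1.17). Of the 8 genes, 7 were higher in CPM in the micropillar library, a direction that 56.6% of 10110 genes with at least 50 UMIs had. Past 1.5-fold, 0 of the 8 were higher and 0 lower, where 7.43% of those genes were higher and 3.06% lower. The median log2 ratio of the 8 was 0.23, beside 0.05 for the 10110 genes. The direction turned when every spot weighed the same. By the mean of per-spot CPM, 1 of the 8, Cxcl12, was higher in the micropillar library, against 58% of the 10110 genes, and the median of the 8 was -0.29. Without Cxcl14, an alternative chosen after seeing the data, the summed ligand ratio was 0.19 (0.01 to 0.37).

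The remaining genes were sparse. Those with 4 to 49 UMIs numbered 14. Ccl5, which attracts T cells and monocytes, had 17 micropillar and 22 flat UMIs. Ccl17 and Ccl22, which bind Ccr4 on T cells, had 11 and 9 UMIs in the micropillar library and 12 and 5 in the flat library. Ccl25, known for drawing cells to thymus and gut, had 16 micropillar and 13 flat UMIs, and Ccl28, a mucosal ligand, had 5 micropillar and 3 flat UMIs. The libraries differed in these by less than counting error. Ccl20, the epithelial ligand of Ccr6, had 13 micropillar and 5 flat UMIs. The monocyte attractants Ccl2, Ccl7 and Ccl12 had 4, 12 and 4 UMIs in the micropillar library and 1, 6 and 2 in the flat library. Ccl3, another ligand of Ccr1, had 3 UMIs in each library, and the eosinophil attractant Ccl24 had 5 micropillar and 7 flat UMIs. Cxcl1 recruits neutrophils, and Cxcl9 and Cxcl10 are interferon-induced ligands of Cxcr3. They had 6, 5 and 4 UMIs in the micropillar library and 1, 1 and 0 in the flat library. No ratio among these genes had an interval that left out 0.

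Ccl1 had 2 UMIs and Cxcl3 had 1, all in the micropillar library, and Ccl11 and Ccl26 had 1 each, in the flat library. Cxcl13, which gathers B cells into follicles, Cxcl15, known from mouse lung, and Cxcl17, a mucosal ligand, had 0 UMIs in both.

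Relative to all RNA, ligand UMIs were concentrated outside the brain tissue. Bone and matrix spots held 310 ligand UMIs in the micropillar library (32.7%) and 233 in the flat library (34.3%), although these spots held 6.83% of all micropillar UMIs and 5.15% of all flat UMIs. Skin spots held 278 ligand UMIs in the micropillar library (29.3%) and 152 in the flat library (22.4%). Neural spots held 313 in the micropillar library (33.0%) and 245 in the flat library (36.0%), while they had 74.5% of all micropillar UMIs and 81.0% of all flat UMIs. Scaled to the UMIs of each tissue, the ligand level was 1429 CPM in micropillar bone and matrix and 1997 in flat bone and matrix. It was 638 CPM in micropillar skin and 872 in flat skin, and 132 CPM in micropillar neural spots and 134 in flat neural spots. Within bone and matrix, fibrous matrix spots held 291 of the 310 micropillar ligand UMIs and 229 of the 233 flat ligand UMIs. Spots placed by osteoblast and osteoclast genes held 5 micropillar ligand UMIs, at 218 CPM (70.8 to 509), and 3 flat ligand UMIs, at 961 CPM (198 to 2807). The bone and matrix level is thus mostly that of fibrous matrix spots.

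Cxcl5, Cxcl12, Ccl9 and Ccl6 had their highest level in bone and matrix in both libraries. These are 4 of the 7 ligand genes with at least 20 UMIs in each library, and 39.9% of 9959 genes with that minimum had the same leading tissue in both libraries. Bone and matrix led in both libraries for 6.16% of the 9959. Of the 7, 0 were led by skin in both libraries (8.71% of genes) or by neural spots in both (8.14%). Ccl8, Cxcl16 and Cxcl14 had different leading tissues in the libraries. The muscle value that led for Ccl8 in the micropillar library rested on 3 UMIs, and with the choice limited to bone and matrix, skin and neural spots, chosen after seeing the data, 5 of the 7 had the same leading tissue in both libraries, as did 69.7% of the 9959 genes.

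Cxcl5 was counted mostly in bone and matrix. It had 31 of its 49 micropillar UMIs there (63.3%), at 143 CPM (97.1 to 203), and 21 of its 26 flat UMIs (80.8%), at 180 CPM (111 to 275). In neural spots it stood at 5.50 CPM in the micropillar library and 2.18 in the flat library, below the bone and matrix intervals. Ccl4, which did not reach the minimum in the flat library, had 22 of 35 micropillar UMIs and 17 of 19 flat UMIs in bone and matrix. Ccl6 stood at 235 CPM (175 to 309) in micropillar bone and matrix and 309 (216 to 427) in flat bone and matrix. In neural spots it was at 10.6 CPM in the micropillar library and 2.73 in the flat library. In bone and matrix, Ccl9 was at 101 CPM in micropillar spots and 163 in flat spots, and Cxcl12 at 83 CPM in micropillar spots and 120.0 in flat spots. Of the sparse genes, Ccl5 had 13 of 17 micropillar UMIs and 9 of 22 flat UMIs in bone and matrix, Ccl7 had 6 of 12 micropillar UMIs and 6 of 6 flat UMIs, and Ccl2 had 4 of 4 micropillar UMIs and its 1 flat UMI. Most Cxcl5, Ccl4 and Ccl6 UMIs came from spots of the fibrous matrix list, which held 51 Cxcl5 UMIs, 38 Ccl4 UMIs and 83 Ccl6 UMIs over both libraries. Markers of white blood cells also stood in the bone and matrix spots. The macrophage list was at 931 CPM in micropillar spots and 1097 in flat spots. The granulocyte list was at 1457 in micropillar spots and 2323 in flat spots, and this list itself placed some of the spots in the tissue. Their part in the ligand levels was not tested.

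**Figure D2:**
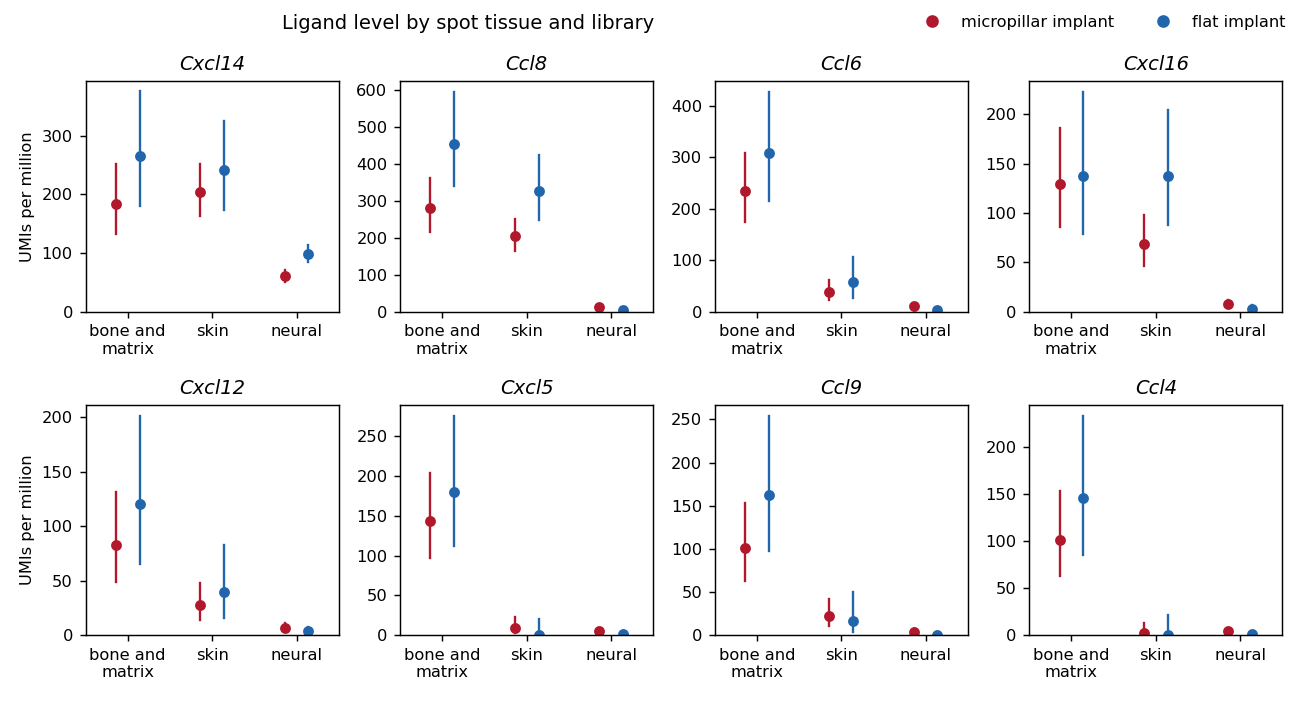
Each panel plots 1 ligand gene as CPM within the tissue in bone and matrix, skin and neural spots, micropillar implant in red to the left of flat implant in blue, with bars for 95% counting intervals and an axis that starts at 0 in each panel. Cxcl5, Ccl4 and Ccl9 stand out in bone and matrix, Ccl8 and Cxcl16 are high in skin as well, and Cxcl14 keeps a level well above 0 in neural spots.

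Ccl8 and Cxcl16 were shared between bone and matrix and skin. Ccl8 had 89 UMIs in micropillar skin, at 204 CPM (164 to 251), and 57 in flat skin, at 327 (248 to 424). In bone and matrix it had 61 UMIs at 281 CPM (215 to 361) in the micropillar library and 53 at 454 (340 to 594) in the flat library. Ccl8 thus had overlapping intervals in skin and in bone and matrix within each library, and both tissues lay above the neural level of 13.5 CPM in the micropillar library and 3.82 CPM in the flat library. In the micropillar library it was at 350.5 CPM in epidermis, 326 in fibrous matrix and 205 in hair follicle spots. In the flat library it was at 293 CPM in epidermis, 488 in fibrous matrix and 334 in hair follicle spots. The intervals of these classes overlapped within each library, so no order of the classes was read from them. Over both libraries together, Cxcl16 was at 173 CPM in epidermis spots and 144 in fibrous matrix spots. In hair follicle spots it was at 25.6 CPM with 3 micropillar UMIs and 127 CPM with 8 flat UMIs. Of the sparse genes, Ccl20, the epithelial ligand, had 8 of 13 micropillar UMIs and 2 of 5 flat UMIs in skin.

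Within skin, the ligands sat beside different structures. Micropillar spots with a Cxcl14 UMI had the hair follicle list at 23638 CPM, against 11000 in skin spots without, and flat spots with a Cxcl14 UMI had it at 33289 against 14513. The epidermis list ran the other way for Cxcl14, at 11878 in micropillar spots with a UMI against 21573 in those without, and 21387 in flat spots with a UMI against 42392 in those without. For Cxcl16 the epidermis list was higher in spots with a UMI, at 49308 against 18405 in micropillar skin and 43358 against 39347 in flat skin. Cxcl14 was therefore counted more with hair follicle genes in both libraries. Cxcl16 was counted more with epidermis genes in the micropillar library, while the flat values were close. Micropillar skin included 174 spots rich in glandular secretion genes, with 173998 of its 435925 UMIs and 1 Cxcl16 UMI, and flat skin had 0. The skin spots without a UMI were therefore not alike in the libraries, and the part of glandular spots in these values was not tested. By class, micropillar Cxcl16 was at 190 CPM (124 to 278) in epidermis and 25.6 (5.28 to 74.9) in hair follicle spots. Flat Cxcl16 was at 151 (86.5 to 246) in epidermis and 127 (54.9 to 251) in hair follicle spots, so those intervals overlapped. Spots with a Cxcl14 or Cxcl16 UMI also had higher median total UMIs than spots without, and its part in these values was not tested.

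In neural spots Cxcl14 had the most UMIs of any ligand gene, with 143 of the 313 micropillar ligand UMIs and 180 of the 245 flat ligand UMIs. Its level was 60.4 CPM in micropillar neural spots and 98.2 in flat neural spots, a log2 ratio of -0.70 (-1.03 to -0.38). In striatal projection neuron spots it was at 99.6 CPM (60.9 to 154) with 20 micropillar UMIs and 185 (139 to 242) with 53 flat UMIs, a log2 ratio of -0.89 (-1.71 to -0.13). Spots placed by general neural genes alone gave 58.2 CPM in the micropillar library and 80.4 in the flat library, a ratio of -0.47 (-0.89 to -0.04). Cortical spots were at 77.0 CPM in the micropillar library and 83.1 in the flat library, and astrocyte spots at 130 CPM in the micropillar library and 120.3 in the flat library, differences within counting error. The lower micropillar level stood as well in neural spots with no UMI of the matrix, bone, epidermis and hair lists, an alternative chosen after seeing the data. There it was 60.8 CPM in 446 micropillar spots and 102 in 673 flat spots, a ratio of -0.75 (-1.42 to -0.12). Brain regions were not equally sampled, with 231 striatal, 68 cortical and 20 thalamic spots in the micropillar library and 263, 104 and 1 in the flat library, and the region cut and the implant cannot be told apart.

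**Figure D3:**
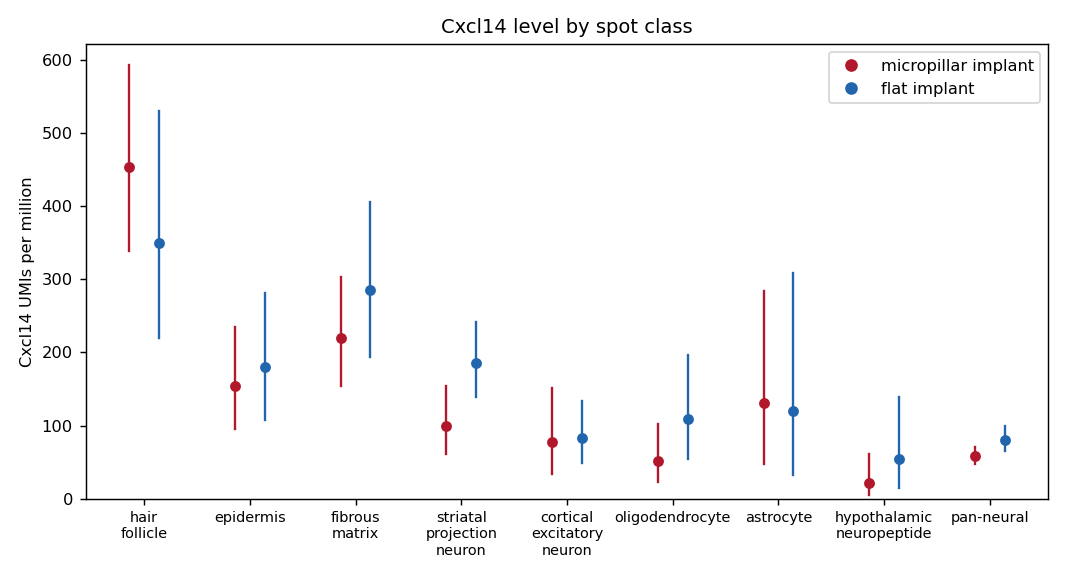
The plot gives Cxcl14 CPM within the spot class, micropillar implant in red to the left of flat implant in blue, with bars for 95% counting intervals, for hair follicle, epidermis, fibrous matrix and neural classes. Hair follicle spots are highest, at 453 CPM in the micropillar library and 350 in the flat library, and striatal spots stand at 99.6 CPM in the micropillar library and 185 in the flat library, with a ratio interval that leaves out 0.

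Hair follicle spots had the highest Cxcl14 level among the classes plotted, at 453 CPM (339 to 592) in the micropillar library and 350 (219 to 530) in the flat library. Fibrous matrix spots were at 219 (154 to 302) in the micropillar library and 285 (194 to 405) in the flat library, and epidermis spots at 153 (94.9 to 234) in the micropillar library and 180 (108 to 281) in the flat library. In the micropillar library the hair follicle interval lay above those of the other 2 skin and matrix classes, whereas in the flat library all 3 overlapped.

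Other ligands of neural spots were few. Ccl25 had 15 of 16 micropillar UMIs and 13 of 13 flat UMIs in neural spots and none in bone and matrix or skin. Its neural level was 6.34 CPM in the micropillar library and 7.09 in the flat library. The floor of 3 counts was 13.8 CPM in micropillar and 25.7 in flat bone and matrix, and 6.88 in micropillar and 17.2 in flat skin. A count of 0 there thus cannot show a lower Ccl25 level. Ccl17 had 9 of 11 micropillar UMIs (81.8%) and 8 of 12 flat UMIs (66.7%) in neural spots, which held 74.5% of all micropillar UMIs and 81.0% of all flat UMIs. Its neural level was 3.80 CPM in the micropillar library and 4.37 in the flat library. In bone and matrix it was at 4.61 CPM on 1 micropillar UMI and 17.1 on 2 flat UMIs, so Ccl17 was not particular to neural spots. Among 6 ligand genes with at least 20 UMIs in neural spots over both libraries, 4 were higher in the micropillar library (57.8% of 10822 genes) and all 4 were past 1.5-fold (12.8% of genes). These were Ccl8, Ccl6, Cxcl16 and Cxcl12, with 32, 25, 18 and 16 UMIs in micropillar neural spots and 7, 5, 5 and 7 in flat neural spots. The log2 ratio was 1.82 (0.62 to 3.25) for Ccl8 and 1.95 (0.54 to 3.70) for Ccl6. For Cxcl16 it was 1.48 (-0.003 to 3.26) and for Cxcl12 0.82 (-0.54 to 2.35), intervals that included 0. Genes of other tissues were also higher in micropillar neural spots, the fibrous matrix list at 1194 CPM against 388 in flat neural spots and the epidermis list at 759 against 226 in flat neural spots. In the neural spots with no UMI of those lists, Ccl8 and Ccl6 had 2 UMIs each in both libraries, a log2 ratio of 0.62 (-3.17 to 4.41) for each, so neither difference was detectable there. Cxcl16 had 0 UMIs in these micropillar spots and 1 in these flat spots, while Cxcl12 had 5 in the micropillar spots and 0 in the flat spots.

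The direction of the bone and matrix difference depended on what the counts were divided by. In CPM of the tissue, ligands were lower in micropillar bone and matrix, with a log2 ratio of -0.48 (-0.73 to -0.23). In the fibrous matrix spots of this tissue alone the ratio was -0.29 (-0.54 to -0.03). Bone cell and granulocyte spots held 22934 and 25272 UMIs of the micropillar tissue and 3123 and 4873 UMIs of the flat tissue. The part of this makeup in the ratio was not tested. Per 100 spots of the whole tissue, ligands were higher, at 74.9 UMIs in the micropillar library and 50.7 in the flat library, a log2 ratio of 0.56 (0.31 to 0.82). Per 1000 UMIs of the fibrous matrix list they stood at 25.5 in the micropillar library and 27.3 in the flat library, a ratio of -0.10 (-0.35 to 0.15). Of the 9 ligand genes with at least 20 UMIs in these spots, all 9 were lower in CPM (49.1% of 3998 genes) and all 9 were higher per spot (95% of genes). Ccl8 and Ccl9 were past 1.5-fold lower in CPM, as were 18.6% of genes. The median ratio of the 9 was -0.52 in CPM beside 0.02 for all genes, and 0.52 per spot beside 1.06.

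Micropillar bone and matrix spots were deeper and held more neural RNA. Their median was 358 UMIs against 208 in flat spots, and the general neural list was at 4095 CPM against 1783 in flat spots. In spots with no neural UMI, 219 micropillar and 332 flat, the ligand ratio of CPM was -0.16 (-0.49 to 0.16). Single genes moved in different ways. Ccl8 had a ratio of CPM of -0.69 (-1.25 to -0.13) in all bone and matrix spots and -0.22 (-0.93 to 0.49) in spots with no neural UMI. Cxcl16 had -0.09 in all of them and -0.86 (-2.41 to 0.55) in spots with no neural UMI, and Cxcl5 and Cxcl12 turned to 0.42 (-0.69 to 1.55) and 0.26 (-0.99 to 1.52). A difference in the summed ligand level was thus not detectable in bone and matrix spots with no UMI of the neural list.

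**Figure D4:**
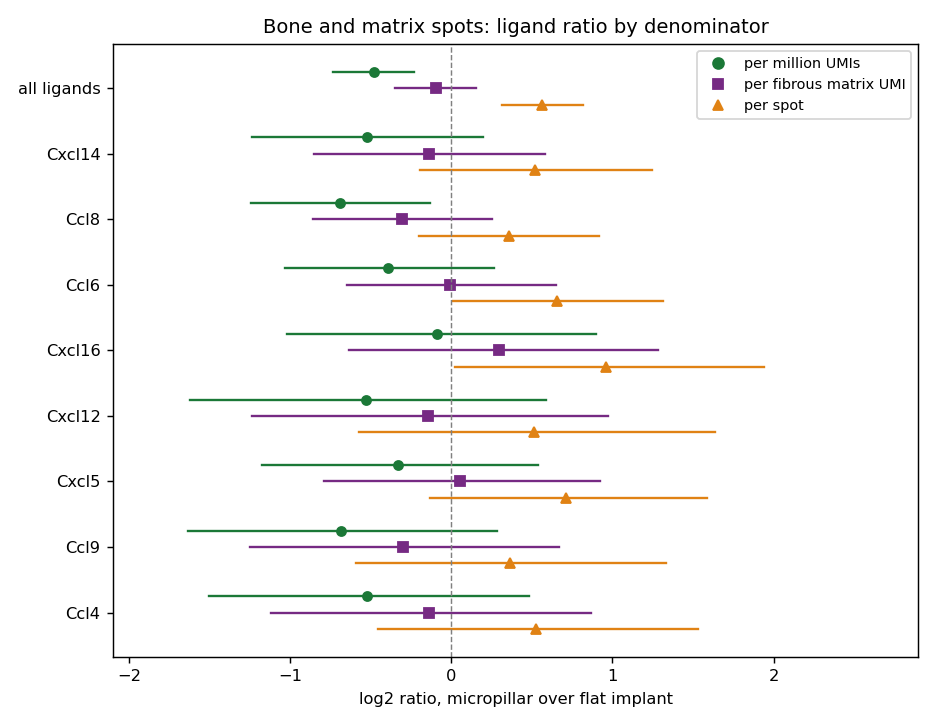
The plot shows the log2 ratio of micropillar over flat implant in bone and matrix spots for all ligands together and for the 8 ligand genes with at least 50 UMIs, in CPM (green circles), per UMI of the fibrous matrix list (purple squares) and per spot (orange triangles), with 95% counting intervals. The summed ratio is -0.48, -0.10 and 0.56 on the 3 scales, so the sign follows the denominator.

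Skin showed the same dependence. Ligands were at 638 CPM in micropillar skin and 872 in flat skin, a log2 ratio of -0.45 (-0.74 to -0.16), and all 4 ligand genes with at least 20 UMIs there were lower (49.5% of 6465 genes). Per 100 spots they stood at 52.7 UMIs in the micropillar library and 42.7 in the flat library, a ratio of 0.30 (0.01 to 0.60). Ccl8 had a ratio of -0.68 (-1.18 to -0.17) and Cxcl16 of -1.0 (-1.82 to -0.16). The micropillar library alone held 174 spots rich in glandular secretion genes. Without them, 354 micropillar and 356 flat skin spots gave a ratio of -0.022 (-0.33 to 0.28), an alternative chosen after seeing the data. There the intervals of Ccl8 at -0.23 (-0.75 to 0.29) and Cxcl16 at -0.32 (-1.15 to 0.53) included 0, and Cxcl14 was at 0.27 (-0.29 to 0.85).

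The receptors of these ligands had fewer UMIs than the ligands. The list of 18 signalling receptors had 180 UMIs in the micropillar library and 133 in the flat library, with 4 receptors at 0 in each. Cx3cr1, the receptor of microglia for the ligand Cx3cl1, held 84 of these in the micropillar library and 69 in the flat library, a log2 ratio of -0.20 (-0.68 to 0.28). Cxcr4, the receptor of Cxcl12, had 8 micropillar and 11 flat UMIs, and Cxcr2, the neutrophil receptor of Cxcl5 and Cxcl1, had 1 micropillar and 2 flat UMIs. The 6 atypical receptors had 256 micropillar and 207 flat UMIs in sum. Ackr1, which carries chemokines on red cells and venules, had 115 micropillar and 112 flat UMIs, a ratio of -0.45 (-0.84 to -0.06). Ackr2, which clears inflammatory Ccl ligands, had 56 micropillar and 57 flat UMIs, a ratio of -0.51 (-1.07 to 0.04). Ackr3, which clears Cxcl12, had 64 micropillar and 28 flat UMIs, a ratio of 0.70 (0.04 to 1.40). With at least 50 UMIs over both libraries there were 1 signalling and 3 atypical receptors, of which Ackr3 alone was past 1.5-fold. Of 10110 genes with that minimum, 7.43% were past 1.5-fold higher and 3.06% lower. So few receptors were counted that this is not read as a result about the lists.

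Of the lists of genes that act beside the ligands, the inflammatory cytokine and NF-kB list was at 119 CPM in the micropillar library and 103 in the flat library, and the interferon list at 25.5 in the micropillar library and 30.9 in the flat library. The platelet chemokine Pf4, which the symbol rule does not take, had 110 micropillar UMIs and 93 flat UMIs, a log2 ratio of -0.25 (-0.66 to 0.17), and was at 309 CPM in micropillar bone and matrix and 369 in flat bone and matrix. Nfkbia, an inhibitor of NF-kB that NF-kB itself induces, had 247 micropillar and 158 flat UMIs, a ratio of 0.16 (-0.14 to 0.45). Nfkb2, an NF-kB subunit, had 48 micropillar and 34 flat UMIs, a ratio of 0.01 (-0.65 to 0.69). Of the interferon list, 9 of 12 genes were measured, and Irf7, which drives type I interferon genes, had 27 micropillar and 24 flat UMIs and a ratio of -0.32 (-1.17 to 0.54). Isg15, Mx1 and Mx2 were not analysed here. The T cell list had 118 micropillar UMIs and 121 flat UMIs, of which Trbc2 alone gave 110 micropillar and 118 flat UMIs. Cd3d, Cd3e and Cd3g, subunits of the T cell receptor complex, had 3, 3 and 0 micropillar UMIs and 1, 2 and 0 flat UMIs.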

How the data were processed

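Spatial UMI counts of 1 micropillar and 1 flat library were analysed. The deposited counts are whole UMIs per gene and spot, not normalized. The matrices were written by Space Ranger 2.0.1, per the file headers, while Cell Ranger 7.2.0 and mm10 stand in the submitters' processing notes. The probe or capture chemistry and the filters are not named by the labels or headers. Spots with at least 100 UMIs were kept, and for 11 symbols on 2 rows the row with more UMIs was used. Each spot took the class whose marker list exceeded its pooled expectation most (Poisson deviance), with at least 3 UMIs and 3 times the expectation. Other spots with at least 3 UMIs of the general neural list and 0.5 times its expectation were neural, and the rest stayed unassigned. The 16 lists formed 5 tissues.

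Levels are CPM, UMIs scaled to the total UMIs of the library, tissue or class, with exact Poisson intervals. Ratios are log2 of micropillar over flat with exact Clopper-Pearson intervals (95%), for counting error only. With 1 library per group no test between groups was possible. UMI counts depend on how well each transcript is captured, so genes were compared with themselves. Alternatives covered scaling (edgeR 4.0.16, DESeq2 1.42.0 under R 4.3.3), spot and gene minimums, class rules and denominators. Genes with at least 50 UMIs over both libraries were described in full, those with 4 to 49 by their counts. Scripts ran under Python 3.11.15 and were tested on simulated data. Ligand genes and marker lists were chosen with earlier results of these data known.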

Additional observations from a re-analysis of the deposited data

Results flagged for a closer look

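Ccl8 had log2 ratios of micropillar over flat on opposite sides of 0 in different tissues. The ratio was 1.82 in neural spots, -0.69 in bone and matrix spots and -0.68 in skin spots, each with a counting interval that left out 0. The difference between tissues was not tested. In narrower sets of spots each interval included 0. The ratio was 0.62 in neural spots with no UMI of other tissues and -0.22 in bone and matrix spots with no neural UMI. It was -0.23 in skin without glandular spots, a set that leaves out a class and not spots of mixed tissue. Per spot the ratio was 1.83 in neural spots, 0.35 in bone and matrix and 0.07 in skin, so the opposite signs hold in CPM. Spots with under 100 UMIs, which the results leave out, also held ligand UMIs. There were 9 in 239 micropillar spots, or 587 CPM (268 to 1113), and 17 in 480 flat spots, or 741 CPM (432 to 1186).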

How the results depend on the processing

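The summed ligand ratio of -0.01 was -0.34 as a mean of per-spot levels, 0.41 in spots with at least 500 UMIs and 0.19 without Cxcl14. That minimum kept 131 of 414 micropillar and 31 of 460 flat bone and matrix spots. The median ratio of 0.23 was 1.16 at that minimum, over 5 genes, and -0.70 in neural spots alone, where Cxcl14 was the 1 gene left, and -0.29 with per-spot means. Past 1.5-fold there were 0 of 8 genes, against 1 of 8 with per-spot means (lower). Spots with at least 500 UMIs gave 4 of 5 (higher), and neural spots alone gave 1 of 1 (lower). A minimum of 20 UMIs gave 2 of 11 (lower), and at least 1 UMI in each library gave 7 of 21 (4 higher, 3 lower). The share of all genes past 1.5-fold was not worked out for these alternatives, so their counts are not read as results about the ligands. In skin the ratio of -0.45 was -0.14 at 5 times the expectation, -0.15 with 5 UMIs of a list, -0.022 without glandular spots and 0.30 per spot. In bone and matrix the ratio of -0.48 was 0.56 per spot, -0.10 per fibrous matrix UMI and -0.16 in spots with no neural UMI. In neural spots the ratio of -0.02 was -0.41 in those with no UMI of other tissues. The cause of these shifts was not tested, and the denominators, the values without Cxcl14, those of restricted spots and the limit to 3 leading tissues were chosen after seeing the data. Scaling by edgeR or DESeq2 moved every log2 ratio by -0.06. With per-spot means 7 of the 8 genes were lower in the micropillar library, Ccl8 at -0.22, Ccl6 at -0.76, Cxcl16 at -0.48, Ccl9 at -0.37, Ccl4 at -0.15, Cxcl5 at -0.07 and Cxcl14 at -0.40, and Cxcl12 was at 0.03. The leading tissue was shared for 6 of 7 genes at 2 and at 5 times the expectation, against 4 of 7. Alternative values of the summary results not given here stayed within the counting interval or, for counts of genes, moved by at most 1.5 times. No paired analysis was possible because each implant has 1 library. Counts under about 20 UMIs limit most ligand genes.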

Other observations

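Of 49 receptor, cytokine and response genes in the lists beside the ligands, 18 were higher and 26 lower in CPM in the micropillar library. The interval left out 0 for 4 of the higher and 2 of the lower ones. The share of all genes with such an interval was not worked out, so these counts are not read as a result about the lists. The genes named next were chosen after their values were seen. Ccr1, the receptor of Ccl6 and Ccl9, had 16 micropillar UMIs and 2 flat UMIs, a log2 ratio of 2.51 (0.42 to 5.68). Ccrl2, which binds chemerin, had 16 micropillar and 2 flat UMIs as well. Il1b, a cytokine of activated phagocytes, had 33 micropillar and 12 flat UMIs, a ratio of 0.97 (-0.02 to 2.06), and Tnf had 12 micropillar and 3 flat UMIs, a ratio of 1.51 (-0.38 to 3.98). Ppbp, a platelet chemokine, went the other way with 5 micropillar and 15 flat UMIs, a ratio of -2.07 (-3.89 to -0.54).

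Granulocyte genes stood beside Cxcl5 and Ccl8 in opposite ways in the libraries, while beside Ccl6 and Cxcl16 they were lower in both. Beside Cxcl14 they were lower in the flat library, and the micropillar values were close. Bone and matrix includes spots placed by the granulocyte list itself, 8 in the micropillar library and 16 in the flat library. The 8 micropillar spots held 25272 of the 216861 UMIs of that tissue, with 1 Cxcl5 UMI and 5 Ccl8 UMIs. Their part in the values below was not tested. In micropillar bone and matrix the granulocyte list was at 4930 CPM in the 27 spots with a Cxcl5 UMI and 1055 in the others. In flat bone and matrix it was at 333 in the 18 spots with a Cxcl5 UMI and 2490 in the others. For Ccl8 the values were 2739 in spots with a UMI and 1077 in the others in the micropillar library, and 527 in spots with a UMI and 2554 in the others in the flat library. For Ccl6 they were 628 in spots with a UMI and 1672 in the others in the micropillar library, and 795 in spots with a UMI and 2448 in the others in the flat library. Spots with a Cxcl16 UMI were at 707 in the micropillar library and 1261 in the flat library, against 1625 in the other micropillar spots and 2361 in the other flat spots. Spots with a Cxcl14 UMI were at 1343 in the micropillar library and 219 in the flat library, against 1481 in the other micropillar spots and 2502 in the other flat spots.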
